A study of Mus musculus with 4 samples.

Results

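The Toll-like receptors Tlr1 to Tlr9 and the adaptor Myd88 are described here in sorted cells of mouse bone marrow, on 4 Agilent 1-colour arrays. They were chosen by name: every probe whose gene name in the spot files is one of these 10 symbols was used, which gave 11 probes for 10 of the 29353 named genes on the array. Tlr3 had 2 probes and each of the other genes 1, and each probe was printed as 1 spot.

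Toll-like receptors are membrane proteins that bind conserved molecules of microbes and, in some cases, of damaged cells. Receptors of the cell surface bind bacterial lipids and proteins, while those of the endosome bind nucleic acids. Nearly all of them signal through Myd88, which gathers the IRAK kinases and TRAF6 and so activates NF-kB and the genes of inflammatory cytokines. In bone marrow they are best known in neutrophils, monocytes, dendritic cells and B cells, and they have also been described on stem and progenitor cells.

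All mice were C57BL6/J and 7 weeks old per the labels. LSK cells, sorted as free of lineage antigens and positive for Sca-1 and c-kit, a fraction that includes the blood stem cells, and CD45-negative cells, labelled as stromal niche cells, were each taken from healthy mice (day 0) and from transplanted mice (day 10). The transplanted mice had received 700 cGy of radiation and 30000 LSK cells, from donors with the CD45.2 form of the leukocyte antigen into recipients with the CD45.1 form, and the design text describes the LSK cells at day 10 as donor cells. The stromal sort is labelled both as CD45.1-negative and as CD45-negative, so the antibody is uncertain, and whether animals were pooled is not given in the sources used here. Each of the 4 groups had 1 array, so no difference below has a test or a spread between mice.

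Levels are log2 values of the processed signal relative to the 75th percentile of all probes on the same array. The error given beside a value, as ±, is that of the scanner software's error model for the spot or spots. It covers the reading of the spots only. The share of probes read above background ran from 47.6% to 56.6%, the lowest in CD45-negative cells at day 0. That array was also the dimmest, with a 75th percentile of 116 signal units against 199 to 315 on the other arrays. Ptprc, the gene of CD45 itself, was above background in the CD45-negative sort, at 3.10 at day 0 and 5.58 at day 10, and was at 4.18 and 4.25 in LSK cells. All 8 stem and progenitor markers were above background on both LSK arrays, and 4 and 7 of them in CD45-negative cells at day 0 and day 10. Markers of mature cells were also above background in LSK cells at day 0: 8 of 8 for B cells, 5 of 5 for plasma cells and 10 of 11 for T and NK cells. The same held for 6 of 6 of basophils and mast cells, 9 of 9 of neutrophils and 8 of 8 of monocytes and macrophages. In CD45-negative cells at day 0 these counts were, in the same order, 7 of 8, 3 of 5, 5 of 11, 4 of 6, 9 of 9 and 8 of 8. Of 9 stromal markers, all were above background in CD45-negative cells at day 0, and 7 at day 10, when Lepr and Pdgfra were not. Both LSK arrays also had 7 above background, again without Lepr and Pdgfra.

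The probes show what each measurement rests on. Cross-reaction between related receptors would blur their values. Tlr1 and Tlr2, surface receptors that sense bacterial lipoproteins together, are printed whole. Capitals mark the longest run of bases shared by both probes, 7 bases. In their best ungapped alignment 29 of 47 bases were identical. The probe of Tlr6, the other partner of Tlr2, was not aligned in this way with either of them.
Tlr1: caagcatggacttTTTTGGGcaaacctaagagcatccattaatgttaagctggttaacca
Tlr2: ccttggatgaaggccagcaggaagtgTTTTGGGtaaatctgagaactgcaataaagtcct
For the other genes with a level above background the first 30 of 60 bases are printed, as the identity of the spot.
Tlr4: tgtgatagggctttaaatagttgagctaat
Tlr6: ttatgaagttagccttagtcaatgaggatg
Tlr7: acctaggacatgccttggtacctgaagttt
Tlr9: ctggttcccgagttgctctgcctgccttgc
Myd88: ggtttgcatcttcttattcctttcacgttc
No member probe shared a run of more than 8 bases with a probe of another member, or of more than 15 with any other probe on the array. These runs compare probes with probes. The transcripts of the relatives were not searched, so cross-reaction was not tested. The array files give these probes no position in the genome.

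Of the 10 genes, 4 were well above background on all 4 arrays: Tlr2, Tlr6, Tlr9 and Myd88. Tlr1, Tlr4 and Tlr7 were above background on every array except that of CD45-negative cells at day 0. Tlr3, Tlr5 and Tlr8 were above background on none, which leaves only an upper limit on their level. Each array therefore measured 7 of the 10 genes, except CD45-negative cells at day 0, which measured 4. None of the spots was saturated.

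**Figure D1:**
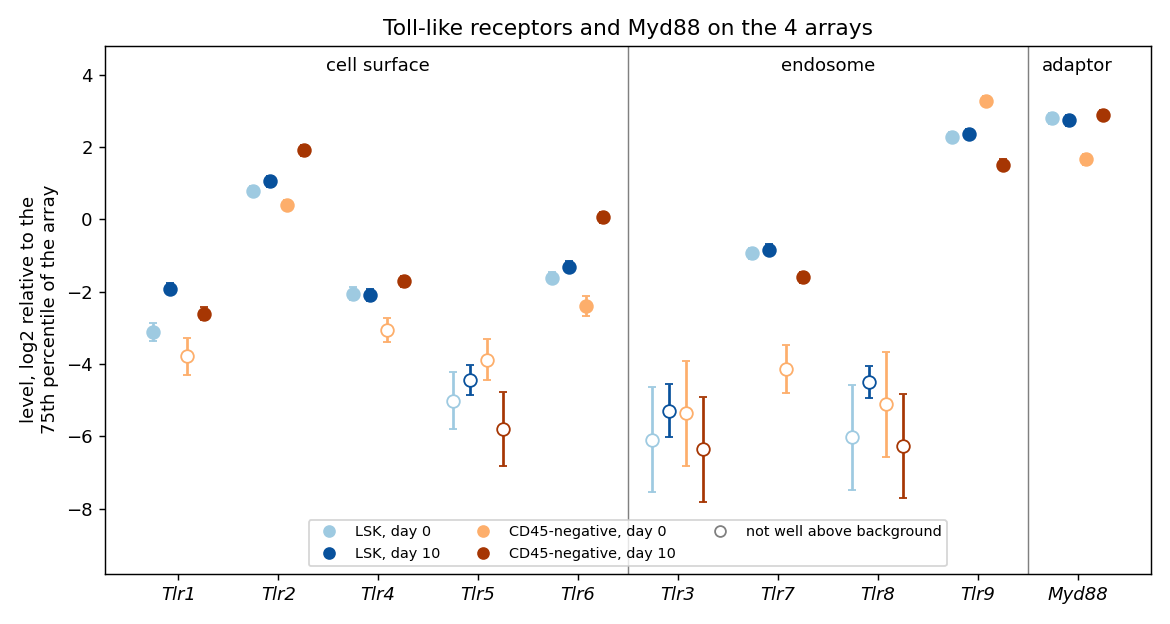
Levels of the 10 genes on the 4 arrays, as log2 relative to the 75th percentile of the array. Each point is 1 array, bars are the scanner software's error, and open points were not well above background. Tlr6 runs from -2.39 to 0.06 and Tlr9 runs the other way in CD45-negative cells, from 3.28 at day 0 to 1.51 at day 10.

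Signals of different probes are not comparable, so each gene is read across the arrays. Tlr2, which senses bacterial lipoproteins together with Tlr1 or Tlr6, stood at 0.79 in LSK cells at day 0, 1.05 in LSK cells at day 10, 0.39 in CD45-negative cells at day 0 and 1.91 in CD45-negative cells at day 10. CD45-negative cells at day 10 were the highest array, and the other 3 arrays were neighbours that differed by no more than 2 scanner errors from one to the next. Tlr6, the partner of Tlr2 for diacylated lipoproteins, stood at -1.61, -1.31, -2.39 and 0.06 in the same order. CD45-negative cells at day 10 again lay highest and those at day 0 lowest, with both LSK arrays together in between. Tlr1, the partner of Tlr2 for triacylated lipoproteins, stood at -3.12 and -1.91 in LSK cells and at -2.61 in CD45-negative cells at day 10, and was not well above background at day 0 in the latter, where its spot read -3.78. Its highest array was that of LSK cells at day 10, the only one set apart from its neighbour by more than 2 scanner errors.

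Tlr4, the receptor of bacterial lipopolysaccharide, stood at -2.05 and -2.09 in LSK cells and at -1.72 in CD45-negative cells at day 10. These 3 arrays lay within 2 scanner errors of their neighbours, and the spot of CD45-negative cells at day 0 read -3.06, not well above background. Tlr5, which binds flagellin, was not well above background on any array and its spot read between -5.80 and -3.88.

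Of the endosomal receptors, Tlr9, which binds unmethylated CpG DNA, was measured on all 4 arrays. It stood at 2.29 in LSK cells at day 0, 2.37 in LSK cells at day 10, 3.28 in CD45-negative cells at day 0 and 1.51 in CD45-negative cells at day 10. CD45-negative cells were thus both the highest and the lowest array, and the LSK arrays in the middle differed by less than 2 scanner errors. Tlr7, which binds single-stranded RNA, stood at -0.94 and -0.84 in LSK cells and at -1.60 in CD45-negative cells at day 10, and was not well above background in those of day 0. Tlr3, which binds double-stranded RNA, read between -6.36 and -5.29 on the brighter of its probes and between -6.40 and -5.38 on the other. Tlr8, the neighbour of Tlr7 on the X chromosome, read between -6.27 and -4.50.

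Myd88, the adaptor shared by these receptors other than Tlr3, stood at 2.80 in LSK cells at day 0, 2.74 in LSK cells at day 10, 1.66 in CD45-negative cells at day 0 and 2.89 in CD45-negative cells at day 10. CD45-negative cells at day 0 were the lowest array, and the other 3 arrays lay within 2 scanner errors of their neighbours.

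The comparison of days in CD45-negative cells sets the labelled niche cells after transplantation against their healthy counterpart, which the study named as the control. Every surface receptor with a value, Tlr7 and Myd88 were higher at day 10, and Tlr9 was lower. Tlr6 was 5.48-fold higher (log2 difference 2.45 ± 0.30), Tlr2 2.86-fold higher (1.52 ± 0.21) and Myd88 2.34-fold higher (1.22 ± 0.20). Tlr9 was 3.39-fold lower (-1.76 ± 0.20). For genes below background at day 0 only a lower bound can be given: Tlr7 was at least 2.93-fold higher, Tlr4 at least 2.53-fold and Tlr1 at least 1.46-fold. The bounds were taken against the lowest level called above background at day 0, -3.15, or against the dim spot itself where that was higher.

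Counted at a size of at least 2-fold, 5 of the 7 genes with a value were higher (Tlr2, Tlr4, Tlr6, Tlr7 and Myd88), against 24.2% of all 16438 genes with a value, and 1 was lower (Tlr9), against 20.2%. In all 6 were apart, against 44.4%. The whole array thus held many genes this far apart. Tlr4 and Tlr7 were counted on bounds, and a gene detected at day 10 only could count as higher but never as lower. The same rule held for all genes. Of the 4 genes measured on both arrays, Tlr2, Tlr6 and Myd88 were at least 2-fold higher and Tlr9 lower. Under a median shift the shares of all genes were 37.2% higher and 13.3% lower, with 6 of the 7 receptor genes higher and 1 lower. Scaled on the added control RNAs of the array, 94.5% of all genes were higher and 1.03% lower, and all 7 were higher. Of all genes measured on both arrays, 98.3% had a smaller difference than Tlr6, 89.0% than Tlr2 and 82.4% than Myd88, while 8.77% had a smaller one than Tlr9. The median over the 4 measured genes was 1.37, and 0.19 over all measured genes.

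**Figure D2:**
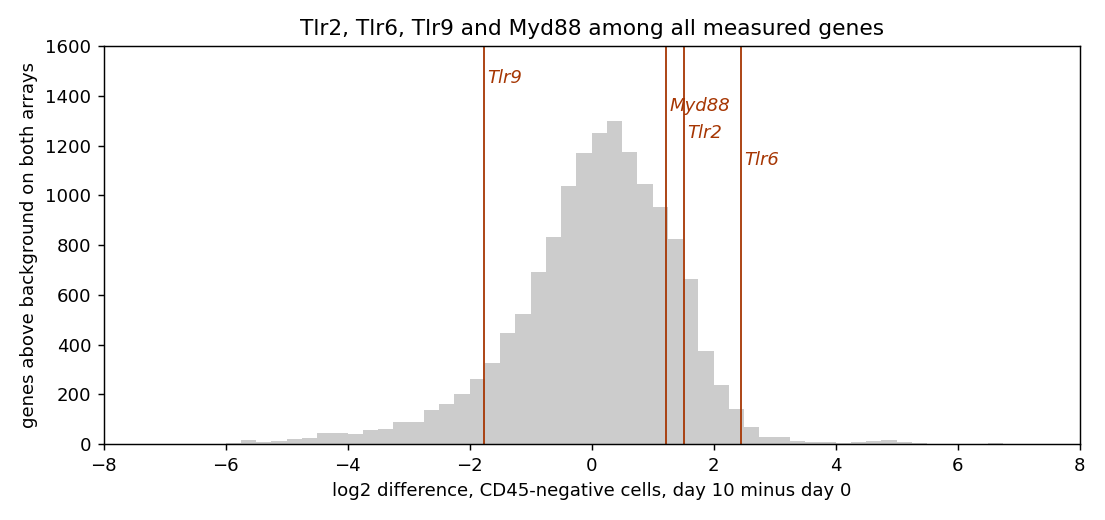
Log2 difference of CD45-negative cells, day 10 minus day 0, over all genes above background on both arrays (grey, number of genes in each bin), with the 4 measured genes as lines. Tlr6 at 2.45 lies in the upper edge of the distribution, and Tlr9 at -1.76 on the lower side.

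Markers of other cells moved between the same arrays. Ptprc was 2.48 higher on the log2 scale at day 10, and 1.62 and 2.29 higher on its other probes. With the Ptprc difference subtracted, that of Tlr6 lay between -0.03 and 0.84, that of Tlr2 between -0.96 and -0.10, that of Myd88 between -1.26 and -0.39 and that of Tlr9 between -4.24 and -3.38, depending on the probe. Below, a summed level adds the signals of a list's genes that were saturated on no array, in multiples of the array's 75th percentile, and leans on the brightest probes. All of the 10 T and NK cell markers with a value were at least 2-fold higher, their summed level going from 5.65 to 122, with Cd4 above background on neither array. B cell markers were higher for 7 of 8 genes, with a summed level of 20.0 at day 0 and 60.1 at day 10 over the 7 unsaturated genes. Neutrophil markers were higher for 7 of 9, with 1 lower (S100a9, saturated, as was S100a8), and the 7 unsaturated genes summed to 99.0 and 342. All 5 plasma cell markers were higher, from 3.33 to 210.

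Monocyte and macrophage markers were higher for 3 of 8 genes (summed level of 7 unsaturated genes 31.2 and 87.5), and those of plasmacytoid and other dendritic cells for 4, with 1 lower (summed level 23.8 and 53.3, Flt3 above background on neither array). Red cell markers were lower for 8 of 8 genes (503 and 32.6 over the 5 unsaturated genes), stromal markers for 9 of 9 (142 and 14.0) and megakaryocyte markers for 5 of 5. The part of these cells in the differences of the receptors was not tested. In sorted bulk samples such as these, fewer cells of a type and less RNA per cell cannot be told apart.

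Several of these sizes moved with the background correction. With the normexp correction of the raw signals, the difference of Tlr6 was 1.02, the bound of Tlr7 was 0.08 and Tlr4 had none, so that a difference of 2-fold could no longer be called for Tlr4 and Tlr7. Tlr2 (1.33), Tlr6, Myd88 (1.12) and Tlr9 (-1.29) stayed at least 2-fold apart. On the 5 probes of the added control RNAs, every difference of this comparison gained 3.26, and Tlr9 was then higher at day 10, by 1.498.

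The comparison of days in LSK cells asks the same of the LSK sort, in which markers of mature cells were also above background. Here 6 of the 7 genes with a value differed by less than 2-fold. Tlr1 was 2.30-fold higher at day 10 (log2 difference 1.204 ± 0.30), the 1 gene of 7 at least 2-fold higher, against 1.81% of all 17810 genes. None was lower, against 3.57%, and 5.37% of all genes were apart in either direction. On the added control RNAs the shares were 1.09% higher and 5.37% lower, with Tlr1 still the 1 gene higher. Tlr1 had signals of 22.9 and 63.5 units, close to background, and its difference was 0.41 under the normexp correction.

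The other 6 differences in LSK cells were small. Tlr6 differed by 0.30 ± 0.22 and Tlr2 by 0.26 ± 0.20, with Tlr6 at -0.01 under the normexp correction. Tlr7 differed by 0.10, Tlr9 by 0.08, Tlr4 by -0.04 and Myd88 by -0.06, each less than its own scanner error. The median over the 7 genes was 0.10, and -0.01 over all measured genes. Ptprc differed by 0.08, and by 0.45 and 0.71 on its other probes. Neutrophil markers were at least 2-fold higher for 3 of 9 genes, with a summed level of 24.4 at day 0 and 78.5 at day 10 over 7 unsaturated genes, and monocyte and macrophage markers for 2 of 8, with 123 and 118 over 7. Other markers were lower: those of basophils and mast cells for 4 of 6 genes (277 and 87.4) and of plasma cells for 3 of 5 (201 and 9.48). T and NK cell markers were lower for 4 of 10, with 1 higher (88.7 and 75.5). Markers of plasmacytoid and other dendritic cells were lower for 2 of 10 and higher for none (136 and 99.9). Those of stem and progenitor cells were lower for 2 of 7 genes with a value and higher for none, with a median of -0.46. B cell markers were higher for 1 of 8 and lower for none. The part of these cells in the differences of the receptor genes was not tested.

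**Figure D3:**
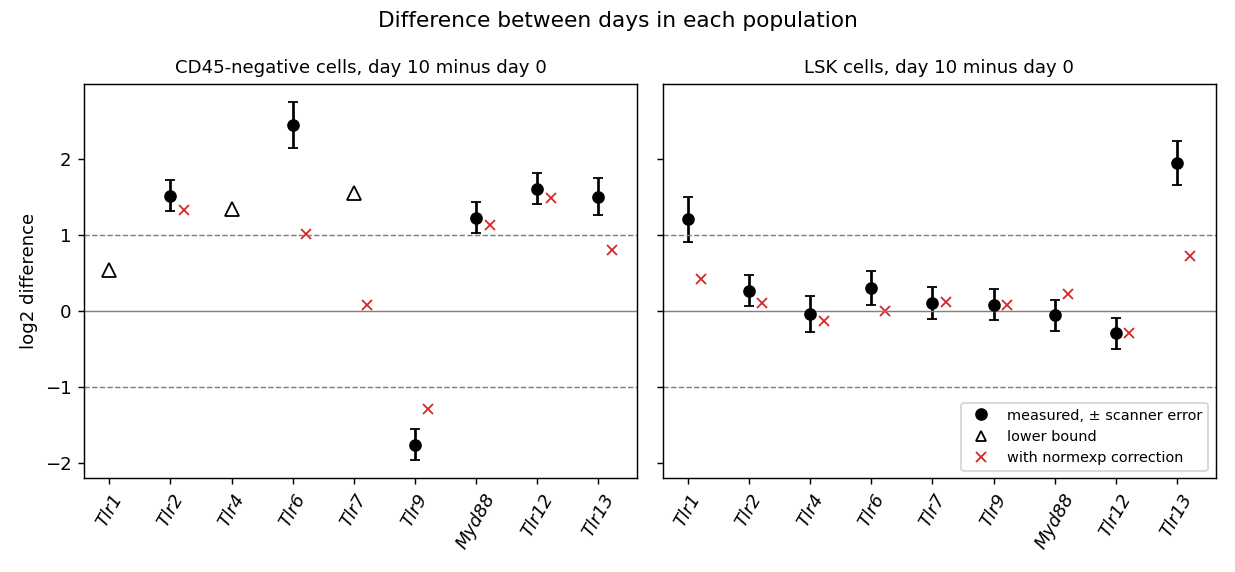
Log2 difference between days for 7 of the genes and for Tlr12 and Tlr13, in CD45-negative cells (left) and LSK cells (right). Points are measured differences with the scanner software's error, triangles lower bounds, red crosses values after normexp background correction, and dashed lines mark 2-fold. In CD45-negative cells Tlr2 and Myd88 lie above the upper line and Tlr9 below the lower one under both corrections, while in LSK cells Tlr1 crosses the upper line under 1 of them.

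LSK and CD45-negative cells were then set against each other at each day. At day 0 Myd88 was 2.19-fold higher in LSK cells (log2 difference 1.13 ± 0.20), Tlr7 at least 4.64-fold and Tlr4 at least 2.01-fold. These were 3 of 7 genes with a value, against 23.0% of all genes, and none was at least 2-fold lower, against 19.0%. Tlr7 and Tlr4 were counted on bounds, which here could only count as higher in LSK cells. In either direction 41.9% of all genes were apart. On the added control RNAs 79.1% of all genes and 6 of the 7 were higher in LSK cells, and 4.18% of all genes were lower. Tlr6 was higher by 0.79 ± 0.31 and Tlr2 by 0.39 ± 0.21, both under 2-fold, and Tlr9 was lower by just under 2-fold (-0.99 ± 0.20). Under the normexp correction Myd88 differed by 0.80, Tlr7 had a bound of 0.54 and Tlr4 none, so that no difference of 2-fold could be called. Under both cyclic loess and a median shift 2 genes were called higher and 1 lower, with Tlr9 at -1.11 and -1.01 and the bound of Tlr4 at 0.82 and 0.98. Ptprc was 1.08 higher in LSK cells, and 0.59 and 1.36 higher on its other probes. T and NK cell markers were higher for 7 of 10 genes and basophil markers for 6 of 6. Markers of plasmacytoid and other dendritic cells were higher for 8 of 10, with 1 lower. Those of monocytes and macrophages were higher for 4 of 8, with 1 lower, of plasma cells for 4 of 5 and of stem and progenitor cells for 7 of 7. Neutrophil markers were lower for 7 of 9, with 1 higher, red cell markers for 8 of 8 and B cell markers for 3 of 8, with none higher. Stromal markers were lower for 7 of 9, with 1 higher.

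At day 10 the order of several genes was turned on the scaling used for the levels above. Tlr6 was 2.58-fold lower in LSK cells (-1.37 ± 0.21; -0.89 under the normexp correction), the 1 gene of 7 at least 2-fold lower, and none was at least 2-fold higher, against 12.9% of all genes each way and 25.7% in all. Other scalings moved that split to 8.83% higher and 17.2% lower (cyclic loess), 6.55% and 24.2% (median shift), and 1.05% and 80.9% (control RNAs), with 1, 2 and 5 of the 7 genes lower and none higher. Tlr2 differed by -0.86, Tlr4 by -0.37 and Myd88 by -0.15, whereas Tlr9 differed by 0.85, Tlr7 by 0.76 and Tlr1 by 0.70. Ptprc differed by -1.33 on its brightest probe, and by -0.58 and -0.22 on its other probes. B cell markers were lower for 7 of 8 genes and neutrophil markers for 7 of 9. T and NK cell markers were lower for 9 of 10, plasma cell markers for 5 of 5 and red cell markers for 8 of 8. Stromal markers were lower for 4 of 7 genes with a value, with 2 higher. Others were higher: stem and progenitor markers for 6 of 8 genes, basophil and mast cell markers for 5 of 6 and megakaryocyte markers for 4 of 5. Monocyte and macrophage markers were higher for 4 of 8, with 2 lower. Those of plasmacytoid and other dendritic cells were higher for 4 of 10, with none lower. Their part in the differences between populations was not tested. The comparisons share arrays, so they are not independent of the differences between days.

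The rest of the mouse receptor family differed among its members. Tlr12, an endosomal receptor of profilin, stood at 2.39 and 2.09 in LSK cells and at 0.10 and 1.71 in CD45-negative cells, 3.05-fold higher at day 10 in the latter (1.61 ± 0.21). Tlr13, which binds bacterial ribosomal RNA, stood at -3.19 and -1.24 in LSK cells and at -1.63 and -0.12 in CD45-negative cells. It was thus higher at day 10 in both populations, by 1.95 ± 0.29 in LSK cells and by 1.504 ± 0.24 in CD45-negative cells, but by 0.72 and 0.80 under the normexp correction. Tlr11, also a profilin receptor, was above background only in LSK cells at day 10, at -2.29, at least 3.17-fold higher than at day 0 there. That bound was 0.48 on the log2 scale under the normexp correction.

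The adaptors other than Myd88 were read from a list of 5 genes. Tirap, which bridges Tlr2 and Tlr4 to Myd88, was 6.42-fold higher at day 10 in CD45-negative cells (2.68 ± 0.27, and 1.34 under the normexp correction). Ticam1, the adaptor of Tlr3, differed by 0.76 ± 0.22, and its other probe by 1.04. Ticam2 and Sarm1 were above background on neither of these arrays. In LSK cells Tirap differed by 0.46 and Ticam1 by -0.21. Ticam2, a partner of Ticam1 below Tlr4, was above background at day 10 alone, with a bound of 0.80 on the log2 scale, so that no adaptor could be called 2-fold apart.

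Of 12 co-receptors and trafficking proteins, 6 were at least 2-fold higher and 2 lower at day 10 in CD45-negative cells, with a median of 0.97. Cd14, which hands lipopolysaccharide to Tlr4, was 4.78-fold higher (2.26 ± 0.22), and Ly96, the subunit of Tlr4 that binds it, 2.20-fold (1.14 ± 0.21). Lgmn, a protease of the endosome, was 2.65-fold higher, and Unc93b1, which carries the nucleic acid receptors to the endosome, 1.82-fold. The lower genes were Cd36, a scavenger receptor that works with Tlr2 and Tlr6 (51.7-fold lower, -5.69 ± 0.21), and Cd180, a relative of Tlr4 best known on B cells (8.15-fold lower, -3.03 ± 0.26). In LSK cells Cd36 was 3.96-fold higher (1.99 ± 0.34, and 0.58 under the normexp correction), 1 of 12 genes at least 2-fold higher, and none was lower.

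The signalling kinases and ligases were split in CD45-negative cells: 5 of 16 were at least 2-fold higher and 4 lower, with a median of -0.36. Irak4, the first kinase that Myd88 recruits, was at least 3.92-fold higher, Traf3 3.58-fold and the ubiquitin ligase Traf6 2.53-fold. Tab3, a partner of the kinase Map3k7, was 6.94-fold lower and Irak2 4.34-fold lower. In LSK cells none of the 16 reached 2-fold on the probe that stood for the gene, with Traf6 at 0.23. The probes of Irak4 disagreed there, at -0.08 and, on the other probe, 1.06.

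Transcription factors below the receptors were higher in CD45-negative cells for 7 of 11 genes and lower for none, with a median of 1.30. Relb and Nfkb1, subunits of NF-kB, were 4.203-fold and 3.10-fold higher. Brakes on the pathway were higher for 9 of 12 genes and lower for none, with a median of 1.24. Among them Socs1, an inhibitor of cytokine signalling, was 4.62-fold higher and Irak3, a kinase-dead IRAK that damps Myd88 signalling, 3.64-fold, with its other probes below background at day 0. In LSK cells no transcription factor reached 2-fold, and the brakes held 1 gene higher, Atf3 (5.02-fold, 2.33 ± 0.22, and 1.38 under the normexp correction), and 1 lower, Zc3h12a (at least 2.88-fold).

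Of 19 target cytokines and enzymes, 11 had a value in CD45-negative cells, 8 of them at least 2-fold higher and none lower, with a median of 1.52. Ccl5, a chemokine abundant in T and NK cells, had the largest difference, 76.6-fold (6.26 ± 0.21), and Il1b, the inflammatory cytokine interleukin-1 beta, was 5.20-fold higher (2.38 ± 0.20). In LSK cells Il1b was the 1 target at least 2-fold higher (2.79-fold, 1.48 ± 0.21), and Ccl5 differed by -0.75. The interleukin-1 receptor family, which also signals through Myd88, was split in CD45-negative cells, with 3 of 6 genes higher and 2 lower. Il18r1 was 13.9-fold higher and Il1rl1, the receptor of interleukin-33, 13.9-fold lower. Other innate sensors were higher for 5 of 8 genes and lower for 1, with a median of 1.52. Among them Nod1, a sensor of bacterial cell wall, was 6.87-fold higher.

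Every one of these lists is read beside the 24.2% and 20.2% of all genes that were higher and lower in CD45-negative cells, the 1.81% and 3.57% in LSK cells, and beside the markers given above for the same arrays.

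**Figure D4:**
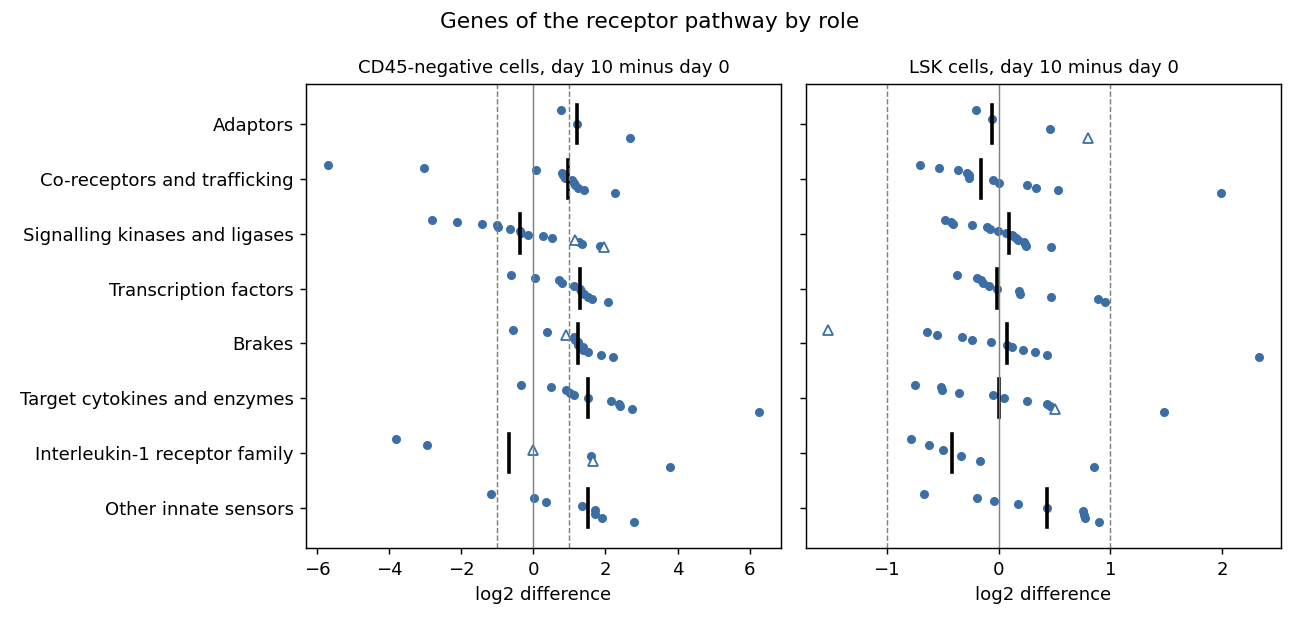
Log2 difference between days for the genes of each list of the receptor pathway, in CD45-negative cells (left) and LSK cells (right); the 2 panels have different scales. Points are measured genes, triangles lower bounds on the size, black bars the medians of the measured genes and dashed lines 2-fold. In CD45-negative cells the medians of adaptors (1.22), transcription factors (1.30), brakes (1.24), targets (1.52) and other innate sensors (1.52) lie right of the line. Those of co-receptors (0.97), kinases (-0.36) and the interleukin-1 receptor family (-0.67) do not. The LSK medians of the 8 lists plotted lie between -0.42 and 0.44.

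Promoters are shown for Tlr2 and Myd88, which were higher at day 10 in CD45-negative cells, and for Tlr9, which was lower. Those of Tlr6, which has 2 windows, are described by their matches only. Windows of 250 bases before each transcription start (build GRCm38.p6, 32851 windows) were searched on both strands for GAGGAA, a core bound by the myeloid and B cell factor PU.1, for the NF-kB consensus, and for the repeat bound by interferon regulatory factors (GAAA, any 2 bases, GAAA). Overlapping matches were counted as 1. Of all windows 23.3% held the first, 7.25% the second and 2.98% the third. RefSeq entries matched 8 of the 10 genes, in 10 windows.

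The stretch of 30 bases around the match to the NF-kB consensus in the window of Tlr2, at chr3:83841762-83841791 on the minus strand, is printed with the match in capitals.
Tlr2: taggacacctGGGGAATTCCCacacggagc
The window of Myd88, chr9:119340019-119340268 on the minus strand, held 1 match to the interferon regulatory factor repeat, in capitals.
Myd88: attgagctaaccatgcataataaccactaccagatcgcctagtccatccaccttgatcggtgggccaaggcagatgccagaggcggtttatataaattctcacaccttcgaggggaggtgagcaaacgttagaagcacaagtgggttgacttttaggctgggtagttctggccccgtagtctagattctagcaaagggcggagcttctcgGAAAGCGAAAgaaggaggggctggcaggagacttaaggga
The window of Tlr9, chr9:106222348-106222597 on the plus strand, held 1 match to GAGGAA, in capitals.
Tlr9: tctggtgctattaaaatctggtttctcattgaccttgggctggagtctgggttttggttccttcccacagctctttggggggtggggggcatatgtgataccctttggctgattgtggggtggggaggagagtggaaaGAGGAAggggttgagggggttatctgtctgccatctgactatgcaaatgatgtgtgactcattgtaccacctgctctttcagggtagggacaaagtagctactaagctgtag
Tlr6 had a match to the same repeat as Myd88 in 1 of its windows and Tlr1 a match to GAGGAA in 1. Tlr3 held 1 match to the NF-kB consensus, Tlr8 1 to GAGGAA, and Tlr5 none of the 3. These are matches of letters and not binding sites.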

How the data were processed

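RNA of 4 samples, 1 per group, was hybridised to 1-colour Agilent mouse arrays. Per the file headers, spots were read by the authors in Agilent Feature Extraction (version 10.5.1.1) and the build was mm9. The deposited spot files hold fluorescence intensity values: a raw mean, a local background, and a processed signal with the background removed. Their flags for detection, saturation and outliers and the control type (unit: other) are also as deposited. The series table is deposited as log2 values that differ from the log2 processed signal by a fixed number per array (within 0.001 for at least 99.977% of probes). Here control and outlier spots were removed, the log2 processed signal of replicate spots was averaged, and each array was set to 0 at the 75th percentile of its 61307 probes.

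Where a gene had several probes, the one with the highest mean over the arrays stood for it. Names came from the spot files, with symbols brought up to date by RefSeq accession for 28136 of 40628 gene probes (69.3%). A difference counts as measured with both arrays above background by the scanner flag, and as a bound with 1. A difference of 2-fold is a size, not a test. The SD of replicate spots was between 0.137 and 0.213 on the log2 scale, and the number of arrays limits the precision.

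The genes, the pathway and marker lists and the named genes were chosen with earlier results of these data known. For each list the rule names at most 4 genes with the largest difference in CD45-negative cells and at most 2 with the largest in LSK cells, and it always gives Ly96, Cd14, Ticam1, Unc93b1, Irak4, Traf6 and Ptprc. Not all of them are printed, and 1 gene of the marker lists is not reported here.

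The alternatives were normexp background correction (offset 50), quantile and cyclic loess normalization, shifts by the median, by the probes above background on all arrays and by the added control RNAs, the series table, detection on 1 array or none required, the mean of a gene's probes, and a threshold of 1.5-fold. Calculations used Python 3.11.15, pandas 2.3.3, numpy 2.4.6, R 4.3.3 and limma 3.58.1. On simulated data only the calculation of measured differences was tested, and that of the lower bounds was not.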

Additional observations from a re-analysis of the deposited data

Results flagged for a closer look

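Cd36, the scavenger receptor that works with Tlr2 and Tlr6, differed between days in opposite directions in the 2 populations: by -5.69 on the log2 scale in CD45-negative cells and by 1.99 in LSK cells. The difference between the populations was not tested, as each rests on 1 array per day. In LSK cells both levels were low, -3.51 at day 0 and -1.53 at day 10, against 5.14 and -0.55 in CD45-negative cells, and the LSK difference was 0.58 under the normexp correction.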

How the results depend on the processing

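No paired analysis was possible because each group had 1 array, and for the same reason no array could be left out. The count of the 10 genes at least 2-fold apart between days in CD45-negative cells was 6, and ranged from 4 (normexp) to 9 (no detection filter). Between days in LSK cells it was 1, with 0 under normexp and 2 with no detection filter. Between populations at day 0 it was 3, with 0 under normexp, 6 on the added control RNAs and 5 at a threshold of 1.5-fold. At day 10 it was 1, with 0 under normexp, 2 under a median shift, 5 on the control RNAs, 4 with no detection filter and 5 at 1.5-fold.

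Of the differences of single genes, 216 moved by less than the scanner error of the main value and 59 by more. A reversal was counted only where the main value was at least 2-fold, and 1 was found. Tlr9 in CD45-negative cells was 1.498 on the added control RNAs. Smaller differences that changed sign are among those that moved by less or by more. For example, Tlr9 between populations at day 0 was -0.99, and 0.77 at the highest over the settings. Of the list medians, 329 moved by less than 0.2, 109 by more, and 2 reversed under the same rule. The median of the endosomal receptors in CD45-negative cells, which is Tlr9 alone at -1.76, reversed to 1.498 on the control RNAs and to 0.38 with detection on at least 1 array. The median of all genes there moved by 0.46 under a median shift, by 3.26 on the control RNAs and by -0.84 with no detection filter. Low signals limit what is known of Tlr1, Tlr4, Tlr6 and Tlr7, whose spots on the array of CD45-negative cells at day 0 read 8.43, 14.0, 22.1 and 6.62 signal units. The cause of these shifts was not tested.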
